A study of Schistosoma mansoni with 6 samples.

Results

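Cyclin B (Smp_082490), cyclin B3 (Smp_047620) and mad2 (Smp_056350) are 3 genes of cell division in the blood fluke Schistosoma mansoni. They were picked by identifier from the 10770 genes with exons in the deposited table, and all 3 had enough reads to be among the 8885 genes tested. The table calls their products cyclin B, cyclin B3 and a mad2-related protein of the spindle checkpoint. RNA came from the posterior somatic tissue of adult male worms of the NMRI strain, harvested from mice 43 days after infection. The 3 irradiated libraries came from worms given 200 Gy of gamma rays from a cobalt source. The 3 control libraries came from mock-irradiated worms (0 Gy), and both groups then spent 48 hours in culture before males were separated and their heads and testes cut away. Each library was made from a pool of 14 to 18 worms, named A, B or C in its group. Whether the pools stem from separate infections is not stated, so the p-values speak only of pool-to-pool spread, which may be technical.

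B-type cyclins bind the mitotic cyclin-dependent kinase and switch it on, which drives a cell into mitosis. Their messages and proteins build up before division, and the proteins are destroyed at anaphase by the anaphase-promoting complex. Mad2 is a protein of the spindle checkpoint: at kinetochores not yet held by microtubules it takes a form that holds back Cdc20, the activator of that complex, so that chromosomes are not parted too early. In flatworms the dividing cells of somatic tissue are stem cells called neoblasts, and ionising radiation stops their division. The comparison asks which genes differ in level between irradiated and control worms. In bulk tissue, fewer dividing cells and less RNA per cell cannot be told apart.

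The libraries held 17577059 to 29641087 exon reads, and a gene with 0 reads could still have had up to 3, or 0.101 to 0.171 in CPM, the exon reads of a gene divided by the effective size of the library. Such limits, and the counting intervals given below, cover counting error only. Markers of tissue that had been cut away were looked at by product name. The 13 genes named for sperm and meiosis summed to 457 to 478 CPM in controls and 440 to 446 CPM after irradiation. Most of that sum came from the chaperone NASP and the repair gene mre11, which somatic cells use too. Of the 11 tested, 0 were called lower and 0 higher, against 2.49% and 0.619% of all tested genes in edgeR. Every gene of the list had reads. A boule-related gene had 11 over all 6 libraries, a tektin 6 and spo11 98, while the other 6 tektins, genes of cilia and sperm tails, had 341 to 3786. A gene named for a meiosis-specific structural protein (Smp_180580) had 1491 and one named for the meiotic checkpoint regulator cut4 (Smp_151380) had 6989. A product name alone does not show that a gene is confined to testis or to meiosis. The head gland list was made of the 43 genes named MEG or venom allergen-like. Of these, 10 had no reads, and the list summed to 2385 to 2555 CPM in controls and 2410 to 2473 CPM after irradiation. MEG-6 and SmVAL6 were its most abundant genes, at 1146 and 872 CPM in controls. Whether the genes of the list are confined to head glands was not tested. In the edgeR fit 1 of its 11 tested genes was higher, against 0.619% of all tested genes, and 0 were lower, against 2.49%. The gene called higher was SmVAL8, at 11.9 ± 1.95 CPM in controls and 23.5 ± 1.36 CPM after irradiation (SD, n = 3). The part of testis or head remnants in the results below was not tested.

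All 3 genes fell after irradiation, cyclin B the furthest. In control libraries A, B and C, cyclin B stood at 10.6, 10.3 and 12.2 CPM, and in irradiated A, B and C at 0.473, 0.463 and 0.585 CPM. Those levels rest on 284, 235 and 213 exon reads against 14, 10 and 14, and every irradiated library lay far under every control library while staying above the level of 3 reads. Groups were apart in this direction in 13.3% of the tested genes. The log2 fold change of cyclin B was -4.44 (SE 0.16, adjusted p = 3.85e-07, edgeR quasi-likelihood test with Benjamini-Hochberg adjustment over all 8885 genes), which is 21.7-fold lower and leaves 4.61% of the control level. On pooled reads, 732 in controls and 38 after irradiation, the fold was 21.5 with an exact 95% counting interval of 15.5 to 30.7.

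Cyclin B3 is the more distant B-type cyclin, known in flies and mice for a part in anaphase and in the meiosis of oocytes. It had 4.36, 4.94 and 4.28 CPM in the controls and 0.676, 0.694 and 0.585 CPM after irradiation. The reads behind these were 117, 113 and 75 against 20, 15 and 14, again with no overlap. Its log2 fold change was -2.80 (SE 0.17, adjusted p = 1.39e-05, edgeR), a 6.95-fold fall to 14.4% of the control level. The pooled counting interval of the fold, from 305 and 49 reads, ran from 5.13 to 9.61.

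Mad2, the checkpoint gene, had the lowest CPM of the 3 in the controls, at 2.72, 2.62 and 2.51, and stood at 0.609, 0.648 and 0.460 CPM after irradiation. It was counted with 73, 60 and 44 exon reads against 18, 14 and 11. The groups were apart here too, and the log2 fold change was -2.20 (SE 0.20, adjusted p = 0.000192, edgeR), a 4.59-fold fall to 21.8% of the control level. The pooled counting interval of the fold, from 177 and 43 reads, ran from 3.28 to 6.58.

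**Figure D1:**
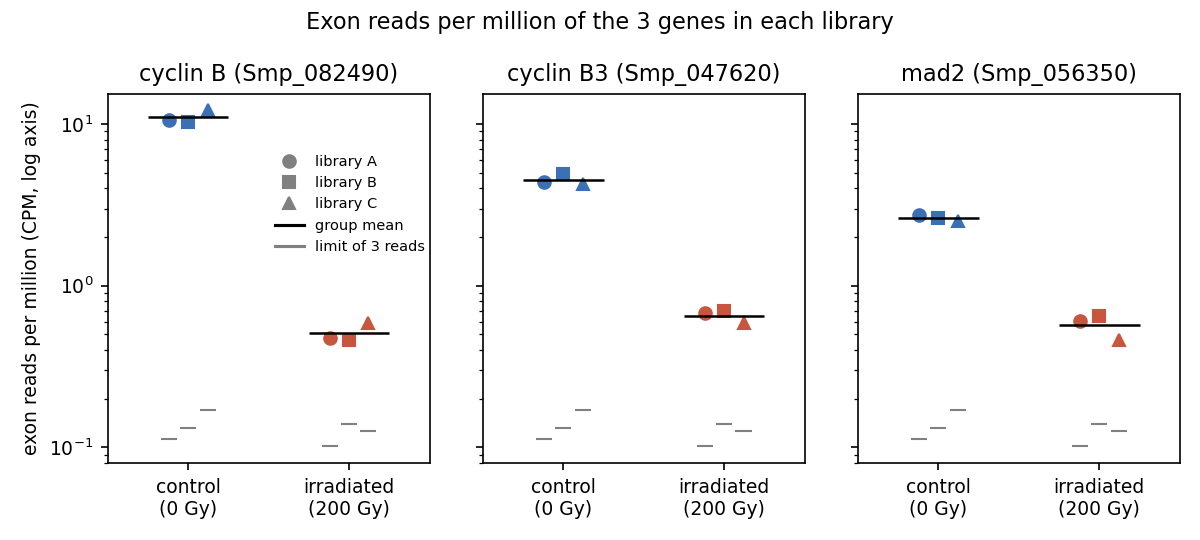
Exon reads scaled to CPM (log axis) of cyclin B, cyclin B3 and mad2 in the 3 control and 3 irradiated libraries, with a marker shape for each library letter, a black line at each group mean and a short grey line at the level of 3 reads in that library. In each panel all irradiated libraries lie under all controls, and the 3 genes, which stand at means of 11.01, 4.53 and 2.62 CPM in controls, come to lie between 0.507 and 0.652 CPM after irradiation.

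Of all 8885 genes tested, 2.49% were called lower and 0.619% higher in the same fit. A share of 0.675% were called lower by at least 4-fold, a class that holds all 3 genes. By size of fall cyclin B ranked 9, cyclin B3 37 and mad2 50 among the genes tested. The standard errors of edgeR, 0.16, 0.17 and 0.20, are smaller than the errors that counting alone gives to the pooled log2 folds, 0.24, 0.22 and 0.25. The counting intervals are thus more cautious than the edgeR errors, but they leave out any spread between pools. DESeq2, which does not let the variance go under that of counting, gave SEs of 0.28, 0.30 and 0.35 for cyclin B, cyclin B3 and mad2 with log2 fold changes of -4.44, -2.80 and -2.20. Its adjusted p-values were 4.39e-52, 7.29e-18 and 7.23e-08, in a fit that called 5.51% of genes lower and 1.43% higher. The authors' deposited table lists fold changes of -21.3, -6.82 and -4.50 for the same genes, with p-values of 7.96e-05, 1.65e-05 and 3.23e-05. Its headers name neither the test nor any adjustment.

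To set levels of the 3 genes beside each other, values per exon length were used (RPKM as the authors computed it, read counts scaled by exon length and by library). Cyclin B has 6 exons over 1301 bases in the table, cyclin B3 11 over 2482 bases and mad2 5 over 603 bases. In controls A, B and C cyclin B stood highest, at 7.08, 6.56 and 7.99 RPKM. Mad2 followed at 3.93, 3.61 and 3.56 RPKM, and cyclin B3 was lowest at 1.53, 1.65 and 1.47 RPKM. None of these ranges overlapped. After irradiation mad2 was the highest, at 0.873, 0.925 and 0.668 RPKM, ahead of cyclin B at 0.315, 0.306 and 0.394 RPKM and cyclin B3 at 0.236, 0.241 and 0.206 RPKM. Cyclin B and mad2 thus traded places, though each irradiated value rests on 10 to 20 reads. All 3 were scarce messages even in controls: 22.7% of the tested genes had a lower mean control RPKM than cyclin B, 13.4% than mad2 and 5.98% than cyclin B3, and after irradiation these shares were 1.25%, 3.40% and 0.698%.

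The ratio between a pair of genes within a library does not depend on how libraries are scaled. Cyclin B stood at 4.63, 3.97 and 5.42 times the RPKM of cyclin B3 in controls A, B and C and at 1.34, 1.27 and 1.91 times after irradiation. The mean log2 ratio moved from 2.21 ± 0.22 to 0.57 ± 0.32 (SD, n = 3), a difference of -1.65 with a 95% counting interval of -2.29 to -1.01. Against mad2 the ratio of cyclin B went from 1.80, 1.82 and 2.24 to 0.360, 0.331 and 0.590, a log2 difference of -2.24 (interval -2.91 to -1.56). Relative to both other genes, cyclin B was lower in every irradiated library than in any control. The ratio of cyclin B3 to mad2 went from 0.389, 0.458 and 0.414 to 0.270, 0.260 and 0.309. These groups did not overlap either, but the log2 difference of -0.59 had a counting interval of -1.24 to 0.06, so that a difference between the falls of cyclin B3 and mad2 was not detectable at this depth. In each of the 3 ratios the exact two-sided permutation test over libraries gave p = 0.1 (adjusted p = 0.1 over the 3 ratios), the smallest that 3 libraries against 3 allow.

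**Figure D2:**
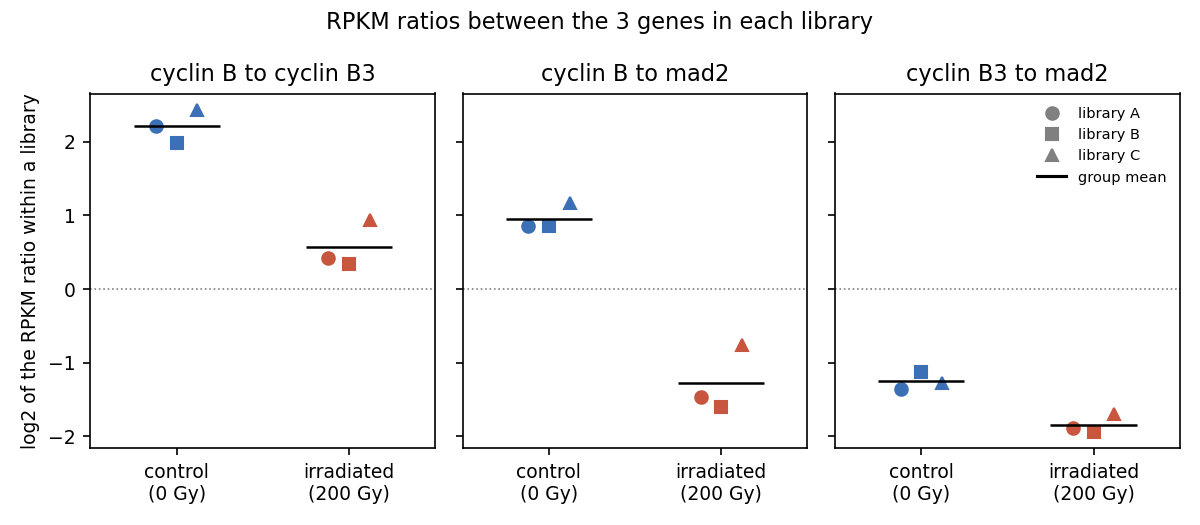
The log2 ratio of RPKM between pairs of the 3 genes within each library (dotted line, equal RPKM; black line, group mean). The ratios of cyclin B to cyclin B3 and of cyclin B to mad2 fell by 1.65 and 2.24 on the log2 scale, that of cyclin B3 to mad2 by 0.59, with no overlap between groups in any panel.

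The falls did not rest on reads that map to several places, since unique and total exon reads were the same number for each of the 3 genes in every library. The log2 fold changes fitted on unique exon reads over 8839 genes, of which 2.61% were called lower, were also -4.44, -2.80 and -2.20. Reads that cross an exon-exon junction come from spliced RNA. Fitted on those alone, over 7264 genes of which 2.51% were called lower, cyclin B changed by -3.78 (SE 0.21, adjusted p = 6.75e-07, edgeR), cyclin B3 by -2.70 (SE 0.39, adjusted p = 0.00168) and mad2 by -2.38 (SE 0.21, adjusted p = 3.54e-05). In junction reads all 3 genes passed the read filter through their control libraries, where they are high. These calls are therefore not separate support for the falls. Cyclin B3 had only 6, 6 and 1 junction reads in irradiated A, B and C against 26, 27 and 22 in controls. With junction reads in place of RPKM, the difference in the log2 ratio of cyclin B to cyclin B3 shrank from -1.65 to -0.71 (exact permutation p = 0.4) and that of cyclin B to mad2 from -2.24 to -1.43 (exact permutation p = 0.1). The ratio of cyclin B3 to mad2 moved by -0.72 in these reads (exact permutation p = 0.5).

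**Figure D3:**
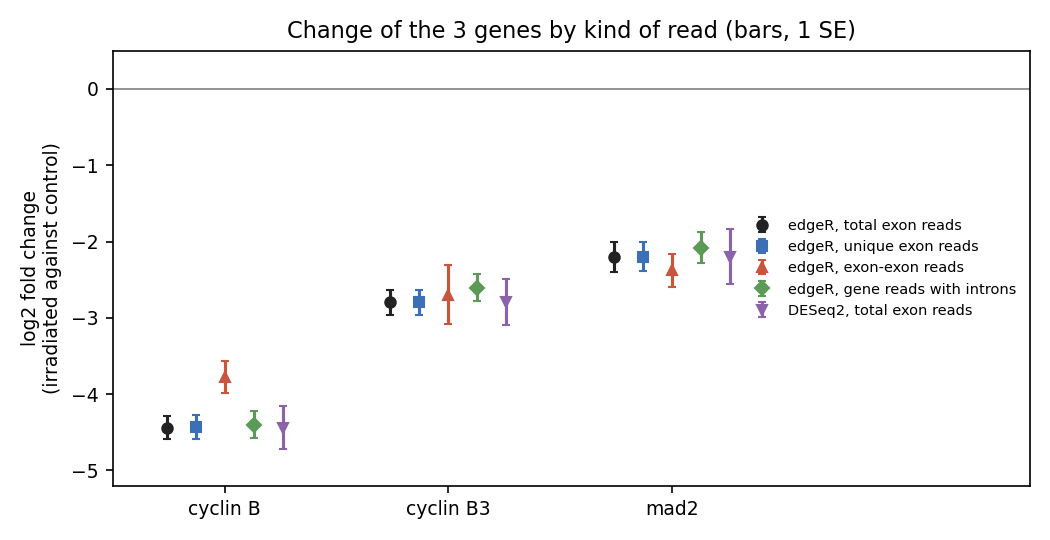
Log2 fold change of cyclin B, cyclin B3 and mad2, irradiated against control, from 4 kinds of reads in edgeR and from DESeq2 (bars, 1 SE). All values lie between -4.44 and -2.08, and the junction reads of cyclin B, at -3.78, stand apart from its other values.

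The smaller fall of cyclin B in junction reads can also be put as a share of its exon reads, which restates the same counts. In controls A, B and C, 38.0%, 40.4% and 41.8% of its exon reads crossed a junction, and in irradiated A, B and C 64.3%, 60.0% and 64.3% did. The exact 95% interval of a single irradiated library was wide, for example 26.2% to 87.8% in irradiated B, where 6 of 10 reads crossed a junction. All irradiated shares lay above all control shares, with an exact permutation p of 0.1 (adjusted p = 0.3 over the 3 genes), the smallest possible. Of 8875 tested genes with reads in every library, 5.39% had all irradiated shares above all control shares, so such an order is not rare. In pooled reads, those of cyclin B that cross no junction went from 440 to 14, a 35.1-fold fall, and those that cross one from 292 to 24, a 13.6-fold fall. In mad2, whose 5 exons average 121 bases, the share was 86.3%, 78.3% and 88.6% in controls and 61.1%, 78.6% and 90.9% after irradiation. In cyclin B3, whose exons average 226 bases, it was 22.2%, 23.9% and 29.3% and then 30.0%, 40.0% and 7.14%. The groups of both overlapped, and the share over all genes lay between 32.3% and 33.0% in every library.

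**Figure D4:**
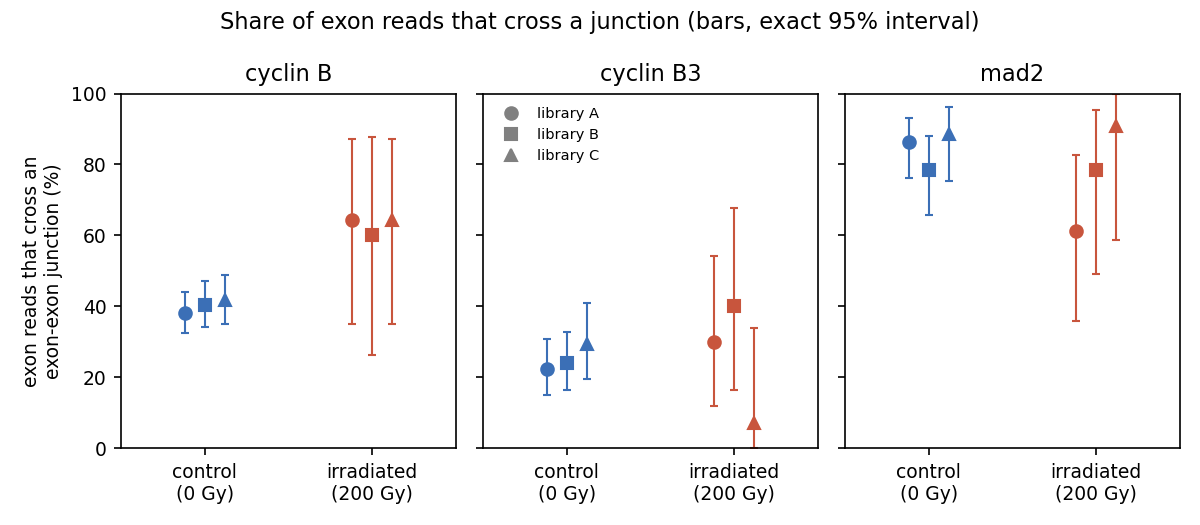
Share of a gene's exon reads that cross an exon-exon junction, in percent, for each library, with exact 95% binomial intervals. The irradiated libraries of cyclin B lie at 60.0% to 64.3% against 38.0% to 41.8% in controls, while those of cyclin B3 and mad2 spread across the controls.

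Intron reads, taken as gene reads less exon reads, were more frequent in cyclin B3 than in cyclin B. They were not scaled by the number or length of introns, so their counts are not comparable between genes. Cyclin B had 0 such reads in all 6 libraries, and 1 read across an intron-exon boundary, in control C. Cyclin B3 had 15, 25 and 12 in the controls and 8, 4 and 3 after irradiation, which was 11.4%, 18.1% and 13.8% of its gene reads and then 28.6%, 21.1% and 17.6%. The 2 ranges overlapped. Mad2 had 0, 4 and 2 intron reads in controls and 1, 2 and 1 after irradiation. With introns included, in a fit that called 1.85% of genes lower, the log2 fold change of cyclin B3 was -2.60 (SE 0.17), and those of cyclin B and mad2 were -4.40 and -2.08.

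Of the other tested genes on a list of mitotic genes matched by product name, 2 of 28 were called lower. The list of 35 genes covers cyclins, cyclin-dependent kinases, the phosphatase that activates them, the spindle checkpoint, anaphase and the kinetochore. It also holds a gene named for the myelin transcription factor myt1 (Smp_168610), caught by its name alone, which had 2 reads and was not tested. Of the 35 genes, 31 were tested, and 5 were lower and 0 higher in edgeR, which is 16.1% of those tested against 2.49% of all genes. The 5 are the 3 genes above, cdc20 and the centromere gene cenp-A, so 7.14% of the other 28 were lower. DESeq2 likewise called 0 of the list higher, and no gene of it with a positive log2 fold change had an unadjusted p under 0.05. The median log2 fold change was 0.00 for the 31 as for all tested genes.

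Cdc20 (Smp_004060), the activator of the anaphase-promoting complex that Mad2 holds back, had 4.70, 4.29 and 4.97 CPM in controls and 2.20, 1.71 and 2.34 CPM after irradiation. It fell by 1.15 on the log2 scale (SE 0.15, edgeR adjusted p = 0.00253). Cenp-A (Smp_040020), named for the histone variant that marks centromeres, had 2.39, 2.93 and 2.11 CPM and then 1.05, 1.16 and 0.920 CPM, so that it fell by 1.26 on the log2 scale (SE 0.20, edgeR adjusted p = 0.00771). Neither gene had overlapping groups. Both calls held without each library in turn, with adjusted p up to 0.0212 for cdc20 and 0.0403 for cenp-A. A second gene, whose product name relates it to Cdc20 (Smp_132020), had 113.0 ± 6.36 CPM in controls and 113.5 ± 3.56 CPM after irradiation (SD, n = 3).

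Among the 11 tested cyclins the B types were the 2 that were called. The other 9 had log2 fold changes between -0.22 and 0.12. No gene of the list is named cyclin A or cyclin E, so how those cyclins changed cannot be read here. Cyclin D (Smp_153660), which in other animals acts before DNA is copied, lay at the low end with 7.36 ± 1.55 CPM in controls and 6.37 ± 0.99 CPM after irradiation (adjusted p = 0.466, edgeR). The most abundant per length was cyclin G (Smp_129360), at 115.7 ± 4.93 and 110.9 ± 2.30 CPM. Cyclins C, K and L (Smp_088250, Smp_130980 and Smp_039670), whose relatives in other animals work with kinases of transcription and splicing, had log2 fold changes of 0.00, 0.12 and -0.13.

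None of the 6 genes named for cyclin-dependent kinases or their partners was called, and 0 had an unadjusted p under 0.05 (DESeq2 called 0). They include a gene named for kinase 9-B and one for an activator of kinase 5. None is named cdk1 or cdc2, so how the kinase of the B-type cyclins changed cannot be read from these genes. The log2 fold changes of the 6 ran from -0.05 to 0.13. The most abundant per length carries a double name, a kinase regulatory subunit or the ribosome factor nip7 (Smp_158910), and had 69.1 ± 4.99 and 75.8 ± 2.05 CPM. The cdc25 phosphatase (Smp_046810), which in other animals takes off the phosphates that hold the mitotic kinase in check, had 79.4 ± 5.50 and 77.8 ± 5.95 CPM. A second cdc25 gene (Smp_152200) had 3 reads in all and was not tested. The list held 7 genes named for mad1, the kinetochore partner of Mad2, of which 6 were tested and 0 called, with log2 fold changes from -0.06 to 0.13 and 0 at an unadjusted p under 0.05 (DESeq2 called 0). So many copies under 1 name may not all encode that partner. The most abundant per length was Smp_099570, at 82.8 ± 1.46 and 88.6 ± 1.94 CPM. The anaphase-promoting complex subunits Smp_152400 and Smp_028430, the latter the most abundant per length of its group, had log2 fold changes of -0.05 and 0.11. The other gene of the kinetochore group, cbf5 (Smp_068920), is in other species an enzyme that modifies ribosomal RNA, and had 80.04 ± 3.18 and 82.3 ± 1.93 CPM. Matching by name misses genes named otherwise: no gene named for cyclin A, cyclin E, cdk1, cdc2, polo, aurora, wee1, bub1 or bub3 was matched.

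**Figure D5:**
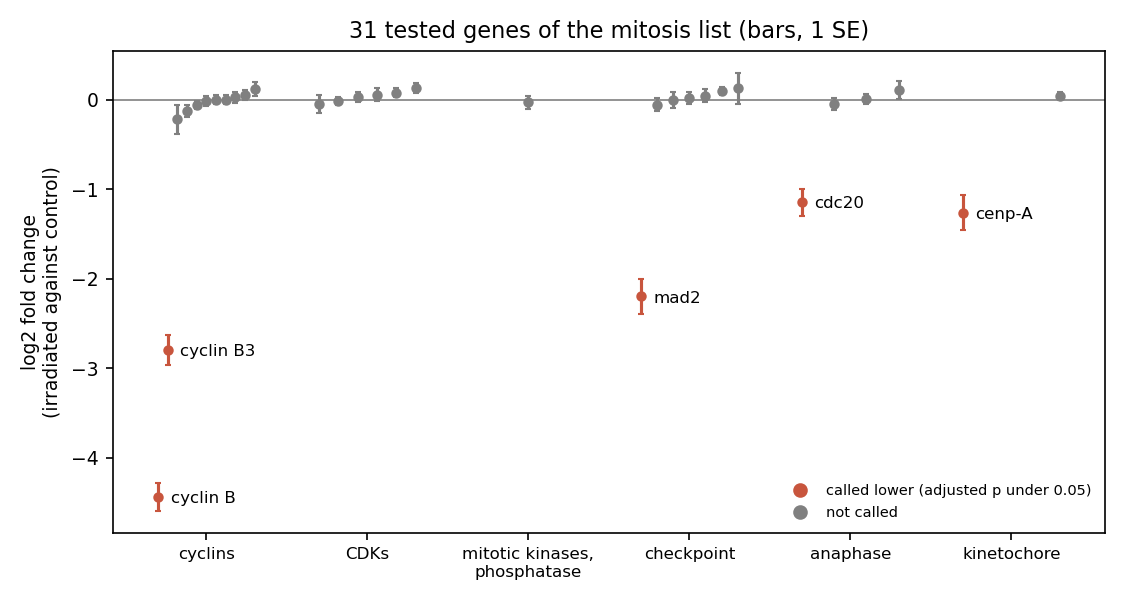
Log2 fold change, irradiated against control, of the 31 tested genes of the mitosis list by group (bars, 1 SE of edgeR). The 5 genes called lower lie between -4.44 and -1.15, and the 26 others lie between -0.22 and 0.13.

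All 3 genes carry the deposited GO term for mitosis, and mad2 is the 1 gene in the table with the term for the spindle assembly checkpoint. Of the 76 tested genes with the mitosis term, the 3 included, 15 were lower and 0 higher in edgeR, which is 19.7% lower against 2.49% of all genes, and the median log2 fold change was -0.11. Without the 3, 12 of 73 were lower. The terms were chosen after the table was seen.

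The genes whose profile over the 6 libraries was most like that of each member were sought among 4930 tested genes. These average at least 0 in log2 CPM and have a product name that does not contain the word hypothetical. Genes without such a name could therefore not appear as nearest. Likeness was measured as the root mean square difference of centred log2 CPM, so nearness to 0 means alike. Nearest to cyclin B were the ankyrin repeat gene Smp_129710 (0.17), the cytokinesis gene prc1 (Smp_016870, 0.18) and the replication helicase gene MCM2 (Smp_079560, 0.19). Nearest to cyclin B3 were the argonaute gene ago2-1 (Smp_179320, 0.15), which the study itself used as a stem-cell gene and which the table names as a translation factor, the helicase gene MCM5 (Smp_143490, 0.15) and the cdc45-related gene Smp_047610 (0.19). Nearest to mad2 were a phosphatidylinositol kinase (Smp_162340, 0.07), the catalytic subunit of DNA polymerase alpha (Smp_178260, 0.09) and the hormone receptor gene dHR4 (Smp_041540, 0.16). By the same measure cyclin B3 and mad2 were 0.31 apart, cyclin B and cyclin B3 0.82, and cyclin B and mad2 1.12. Over 6 libraries in 2 groups this measure mostly ranks genes by the size of their fall.

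In the order of genes in RefSeq assembly ASM23792v2, the cdc45-related gene is also the direct neighbour of cyclin B3. It encodes a relative of a factor that works with the MCM helicase. It had 2.54, 2.23 and 2.74 CPM in controls and 0.439, 0.417 and 0.334 CPM after irradiation, and it fell by 2.64 on the log2 scale (SE 0.22, edgeR adjusted p = 0.000116) with no overlap between groups. The gene on the other side of cyclin B3, an ADP-ribosylglycohydrolase (Smp_147630), had 31.8 ± 0.35 and 31.1 ± 2.47 CPM. Next to cyclin B lie a methyltransferase-related gene (Smp_166830), at 37.3 ± 1.28 and 38.3 ± 0.83 CPM, and Smp_082500, which had 0 reads in all libraries. Next to mad2 lie a gene named P30 dbc (Smp_056360), at 1432 ± 11.9 and 1348 ± 20.4 CPM, and Smp_152340, at 10.4 ± 1.12 and 11.4 ± 0.19 CPM. Of these neighbours with reads, the cdc45-related gene was the 1 that was called, and no neighbour overlaps a member in that assembly.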

How the data were processed

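RNA was sequenced from 6 libraries (TruSeq RNA kit, pooled on a single HiSeq lane for 100 cycles, per the labels' protocols). The deposited table gives counts of exon, unique exon, exon-exon, intron-exon and gene reads, and RPKM values, per the file headers. It also gives the authors' fold change and p-value. The fold change, as deposited, is a signed score computed by the authors, negative where irradiated worms were lower, per the file headers. The headers do not say whether the p-value was adjusted. Which aligner, counter, build and annotation served is not given in the sources used here. From the 13305 rows, the 2535 with no exon length were left out.

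Total exon reads were tested with edgeR 4.0.16 in R 4.3.3 (filterByExpr with a minimum count of 10, TMM scaling, quasi-likelihood test, unshrunken log2 fold changes, SE as log2 fold change over the square root of F), with calls made at an adjusted p under 0.05. The fit was checked on simulated counts with a dispersion shared by all genes, which tests the code and not the calls reported here. DESeq2 1.42.0 and limma 3.58.1 on log2(RPKM + 0.5) were alternatives, with other scalings, filters, read kinds, the replicate letter as a block, and leaving out each library. Gene reads with introns were added after seeing the data. Counting intervals are exact binomial ones, and for log2 ratios normal ones from read counts.

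The 3 genes and the lists were chosen with earlier results of these data known. Named genes were the 3 members, the called genes of the mitosis list with the most abundant per length in each of its groups, the nearest profiles and the genomic neighbours. Other cyclins and genes of the list named beside them were chosen after their values were seen. RefSeq gene order was used only for neighbours, and 9647 identifiers matched. Libraries of a group differed by more than sampling noise (chi-square per degree of freedom 7.42 to 18.1). No label says that the kit keeps strand, so antisense reads cannot be told apart.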

Additional observations from a re-analysis of the deposited data

How the results depend on the processing

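The falls of the 3 genes were called under every alternative in which they were tested. With 5 CPM required in 3 libraries, cyclin B3 and mad2 were not tested. Cyclin B passed that filter through its control libraries alone. The filter on junction reads was likewise passed by all 3 genes through their controls. Calls under these settings are therefore not separate support. Leaving out each library, the log2 fold change ran from -4.55 to -4.37 for cyclin B, from -2.84 to -2.73 for cyclin B3 and from -2.28 to -2.07 for mad2. Over all alternatives, adjusted p ran up to 2.05e-05, 0.00168 and 0.00215. A pseudocount of 0.5 on RPKM shrank the log2 changes to -3.20, -1.50 and -1.67, and one of 0.1 to -4.06, -2.33 and -2.05, since it weighs on scarce genes. The ratio differences ran from -1.83 to -1.53, -2.49 to -2.08 and -0.66 to -0.53 without each library. The 5 calls in the mitosis list fell to 1 with the 5 CPM filter, which keeps cyclin B alone of the 5, and to 4 with junction reads, in which cenp-A, with 62 such reads over 6 libraries, was filtered out.

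The count of all genes called, 221 lower and 55 higher, was 490 and 127 with DESeq2, 77 and 26 with the 5 CPM filter, and 140 and 139 lower with limma at the larger and the smaller pseudocount. Without control A it was 359 and 125, without irradiated B 723 and 129, and between 119 and 127 lower and 16 and 33 higher without each of the others. The cause was not tested. With the replicate letter as a replicate block it was 851 and 277. Deviations of libraries with the same letter were weakly correlated (r = 0.0417, 0.179 and -0.103 for A, B and C), and not every library correlated best with its own letter. Whether the letters pair the pools is not stated in the labels and was not settled by these correlations. With that block the 3 genes changed by -4.44, -2.79 and -2.20, and no call in the mitosis list changed. The 10 to 20 exon reads behind each irradiated value limit what can be said of ratios and junction shares.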
